A study of Mus musculus with 5 samples.

Results

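Hox genes encode homeodomain transcription factors that give cells along the body axis their positional identity. They lie in 4 clusters, HoxA to HoxD, and genes of the same number in different clusters are paralogues, copies that share an ancestral gene. Low numbers lie at the 3′ end of a cluster and are used towards the head, and high numbers lie at the 5′ end and are used towards the tail. Polycomb complexes keep unused Hox genes shut, MLL complexes keep used ones open, and proteins of the PBC and MEIS families bind DNA together with Hox proteins. Adult endothelial cells keep part of this code, with a set of genes that depends on the body site, and Hox factors are known there for effects on migration, adhesion and vessel growth.

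The genes described are every protein-coding gene named Hoxa, Hoxb, Hoxc or Hoxd with a number. The mouse annotation GENCODE M21 (build mm10) holds 39 of these, and 34 of them had a row among the 27843 genes counted. Hoxa11, Hoxc11, Hoxc12, Hoxc13 and Hoxd12 are not analysed here. The 34 were 10 HoxA, 10 HoxB, 6 HoxC and 8 HoxD genes.

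RNA was sequenced from lymphatic endothelial cells (LECs), the cells that line the lymph-filled sinuses, sorted from lymph nodes of 8-week-old C57BL/6 mice as CD45-, TER119-, CD31+ and podoplanin+ cells. The 3 control libraries came from Rankl flox/flox mice and the 2 knockout libraries from Ccl19 Cre Rankl flox/flox mice, so both groups carry the floxed Rankl alleles (RANKL is a cytokine of the TNF family). Cre is driven by Ccl19, a chemokine gene of fibroblastic stromal cells, so the deletion is aimed at those stromal cells and not at the LECs. The question is which genes of LECs are under the influence of RANKL from the stroma. The controls were littermates, with no litter or pair given, and the labels do not say which nodes were pooled, whether the same nodes were used in both groups, or how many animals went into a library, so p-values measure the spread between these 5 libraries. The depth was 52839375 to 70171307 counts per library. The LEC markers Prox1 (1459 ± 103 CPM in controls, SD, n = 3) and Lyve1 (4531 ± 199 CPM) were high, and the leukocyte marker Ptprc was at 2.46 ± 0.294 CPM. Fibroblastic and mesenchymal transcripts were read in controls too, led by Dcn (259 ± 58.1 CPM) and Col3a1 (86.9 ± 57.1 CPM). Whether reads of low genes came from LECs or from other cells in the sort was not tested. CPM are counts per 1000000 after TMM scaling of library size, and 1 CPM stood for 52.0 to 71.0 reads.

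Control LECs transcribed a short run of HoxD genes and little else of the clusters. A gene was called transcribed at 1 CPM or more in every control library, and 6 of 34 genes reached this: Hoxd8, Hoxd9, Hoxd10, Hoxa5, Hoxa7 and Hoxb7. The other 27 with any read lay well below the threshold, with control means of at most 0.565 CPM (Hoxa6), and Hoxb13 had 0 reads in all libraries. The lowest value of a transcribed gene in a control was 2.52 CPM, in Hoxa5. Hoxd8, Hoxd9 and Hoxd10 together gave 87.1%, 87.8% and 89.7% of all Hox reads in controls 1, 2 and 3.

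The 300 bases around an annotated start site (250 before and 50 after, RefSeq, GRCm38.p6, which is mm10) are shown for the HoxD run, for its barely read neighbour Hoxd11 and for Hoxa7, the gene that changed in knockout. Each is written 5′ to 3′ on the gene's strand, and capitals mark CCAAT boxes (CCAAT on either strand), a common promoter element. Hoxd8 lies on the plus strand at chr2:74704365-74704664, Hoxd9 on plus at chr2:74697513-74697812, Hoxd10 on plus at chr2:74691641-74691940, Hoxd11 on plus at chr2:74682073-74682372 (the annotated start site with more CG of its 2 entries), and Hoxa7 on the minus strand at chr6:52218524-52218823.
Hoxd8: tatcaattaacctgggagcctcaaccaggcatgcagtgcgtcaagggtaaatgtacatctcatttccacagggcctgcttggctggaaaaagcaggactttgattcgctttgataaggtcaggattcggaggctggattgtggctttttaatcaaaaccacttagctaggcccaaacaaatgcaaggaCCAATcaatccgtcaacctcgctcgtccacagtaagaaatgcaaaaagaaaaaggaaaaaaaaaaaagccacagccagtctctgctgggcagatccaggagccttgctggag
Hoxd9: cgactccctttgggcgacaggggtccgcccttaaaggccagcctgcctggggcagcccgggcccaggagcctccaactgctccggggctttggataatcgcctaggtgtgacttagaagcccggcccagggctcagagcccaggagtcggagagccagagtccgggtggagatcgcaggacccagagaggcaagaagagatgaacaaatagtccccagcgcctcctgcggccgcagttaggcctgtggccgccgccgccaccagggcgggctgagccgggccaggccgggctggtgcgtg
Hoxd10: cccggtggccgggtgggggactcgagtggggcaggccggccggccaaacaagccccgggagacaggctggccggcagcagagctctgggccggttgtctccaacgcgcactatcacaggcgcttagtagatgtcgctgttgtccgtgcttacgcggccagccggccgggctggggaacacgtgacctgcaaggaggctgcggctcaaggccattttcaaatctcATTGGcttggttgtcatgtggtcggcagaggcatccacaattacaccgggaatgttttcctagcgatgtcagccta
Hoxd11: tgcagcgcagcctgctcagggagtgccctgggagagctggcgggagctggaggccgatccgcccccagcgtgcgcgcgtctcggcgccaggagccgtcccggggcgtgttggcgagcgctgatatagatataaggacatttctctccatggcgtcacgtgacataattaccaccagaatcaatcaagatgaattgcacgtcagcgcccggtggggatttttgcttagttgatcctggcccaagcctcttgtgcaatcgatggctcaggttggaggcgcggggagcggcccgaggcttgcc
Hoxa7: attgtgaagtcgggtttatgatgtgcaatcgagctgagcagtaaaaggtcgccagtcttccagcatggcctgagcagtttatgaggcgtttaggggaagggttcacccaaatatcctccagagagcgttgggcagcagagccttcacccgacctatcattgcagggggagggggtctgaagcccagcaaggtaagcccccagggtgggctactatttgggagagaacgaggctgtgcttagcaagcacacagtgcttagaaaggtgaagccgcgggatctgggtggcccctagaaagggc

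Hoxd8 and Hoxd10 each held 1 CCAAT box, and Hoxd9, Hoxd11 and Hoxa7 held none in this window. CCAAT occurred in 37.4% of all 32851 promoter windows of this length. CG dinucleotides, dense in the CpG islands usual at Hox genes, were also counted. The Hoxd8 window had 6 CG, the Hoxd9 window 20, the Hoxd10 window 22, the Hoxd11 window 25 and the Hoxa7 window 9, against a median of 7 over all windows. The other Hoxd11 start site, not shown, had 4 CG, so the count of 25 follows from the choice of window. The Hoxa7 window lies inside the GENCODE M21 span of that gene (52214491 to 52221854, minus strand). It does not cover the 5′ end of that span. The TATA box TATAAA (on either strand) was absent from all 5 windows shown and occurred in 13.6% of all windows. A match to the NF-kB consensus, searched on both strands because RANK signals through NF-kB, was absent from them too and occurred in 8.46% of all windows.

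Levels of different genes were compared per exon length, as CPM per kilobase of exon (RPKM). Hoxd10, studied in endothelium as a restraint on migration, led with 20.9 ± 1.39 RPKM in controls (SD, n = 3), higher than 87.0% of the 16621 protein-coding genes with a read in controls. Hoxd8, reported in cultured LECs to act on Prox1 and Lyve1, followed with 19.1 ± 0.189 RPKM. The step between them was 1.10-fold, and Hoxd10 was the higher in 3 of 3 controls. Hoxd9, their neighbour between them on the chromosome, stood at 7.65 ± 0.197 RPKM. The next levels were Hoxb7 (2.76 ± 0.91 RPKM), Hoxa5 (1.44 ± 0.106 RPKM) and Hoxa7 (1.22 ± 0.143 RPKM). No neighbours in this order had overlapping control values, down to the 1.19-fold step from Hoxa5 to Hoxa7. That last step turns when exon bases shared with other genes are left out of the length, which gives a control mean of 1.53 RPKM for Hoxa7 and 1.44 RPKM for Hoxa5.

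**Figure D1:**
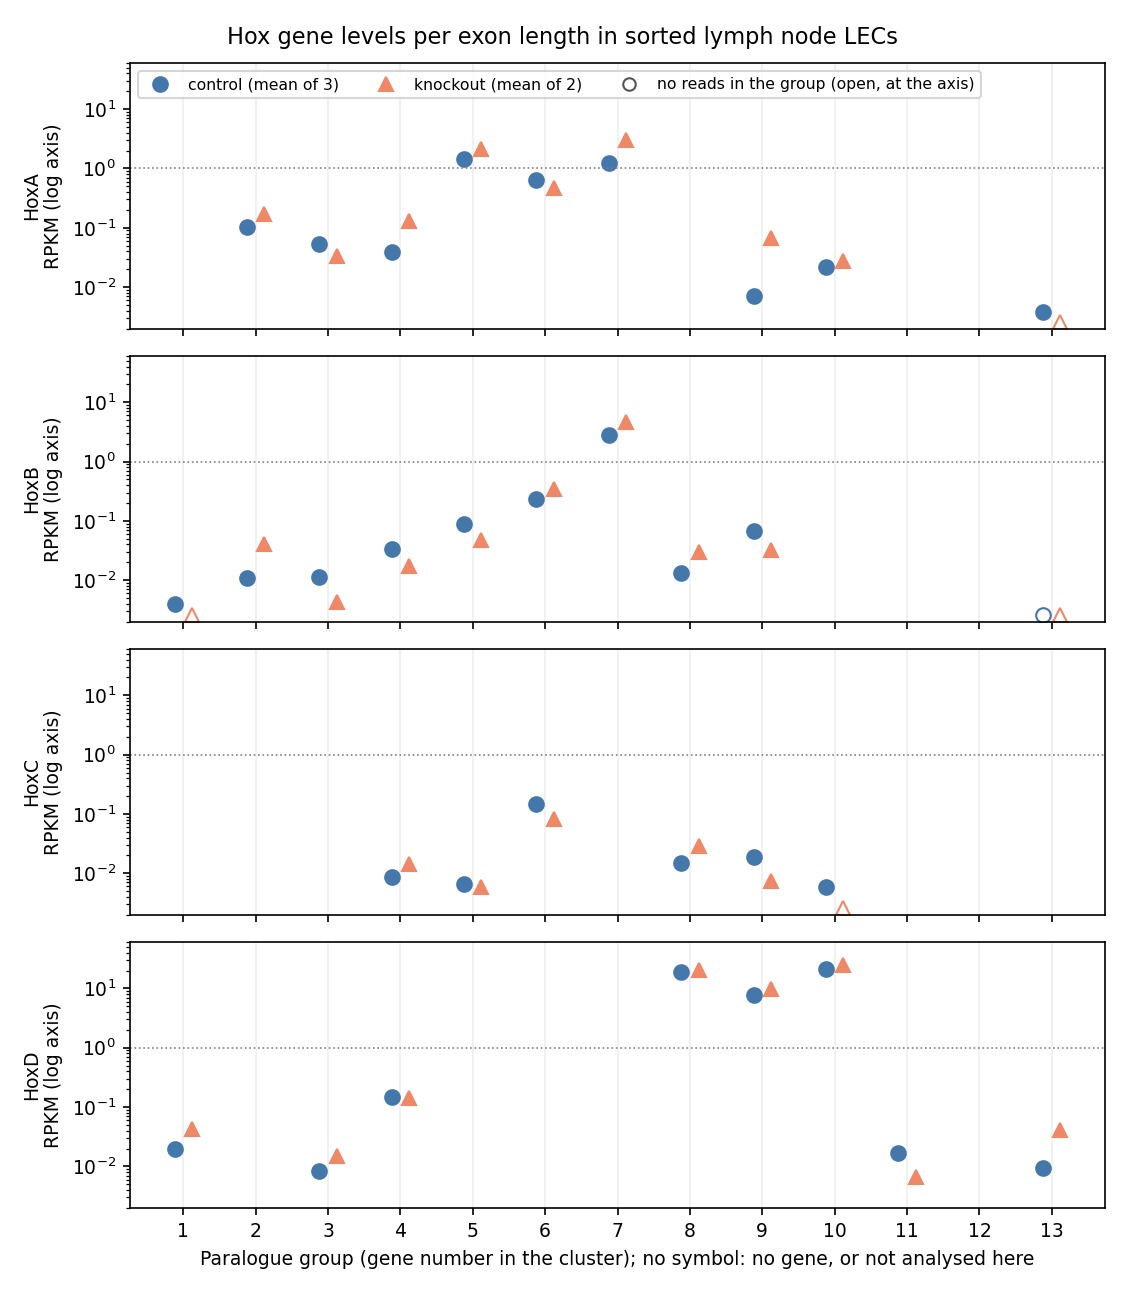
RPKM (vertical axis, log scale) of the Hox genes reported here, by paralogue group (horizontal axis) in the 4 clusters, as the mean of 3 control (circles) and 2 knockout (triangles) libraries; open symbols at the axis mark groups with no reads, and the dotted line is 1 RPKM. Hoxd8, Hoxd9 and Hoxd10 stand at 7.65 to 20.9 RPKM in controls, between Hoxd4 at 0.145 and Hoxd11 at 0.0166 RPKM.

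The HoxD run had sharp edges on both sides. Hoxd10 (chromosome 2, 74691924 to 74695105) stood 1261-fold above its 5′ neighbour Hoxd11 (74679557 to 74687016), which had 6, 3 and 4 reads in controls 1, 2 and 3. On the 3′ side Hoxd8 (74704615 to 74707933) stood 131-fold above Hoxd4 (74711929 to 74729160), which had 14, 39 and 24 reads. Hoxd3 and Hoxd1, further 3′, had at most 4 reads in a control. Of the exon bases of Hoxd3, 62.8% lie under other annotated genes, and of those of Hoxd4, 52.3%, so their levels are uncertain, as is that of Hoxb3 (52.9%). With shared bases left out of the length, the control mean of Hoxd4 is 0.304 RPKM, against 19.1 RPKM for Hoxd8. The 3′ step is then smaller than 131-fold. Hoxd13 at the 5′ end had 5, 0 and 0 reads. The antisense gene Hoxd3os1, which shares exon bases with Hoxd3 and Hoxd4 and none with Hoxd8, was read as well (230, 220 and 151 reads), and without strand information reads of the shared bases cannot be told apart.

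HoxA and HoxB were used at the middle of the cluster. In HoxA, Hoxa5 had 179, 182 and 139 reads and Hoxa7 267, 231 and 157 reads in controls 1, 2 and 3. Hoxa6 between them had 48, 30 and 28 reads, and per length Hoxa7 was 1.88-fold above it. Towards the 3′ end Hoxa2 and Hoxa3 had 2 to 21 reads in a control, and towards the 5′ end Hoxa9, a factor of blood and vessel progenitors, had 2, 2 and 3. In HoxB, Hoxb7 had 411, 248 and 157 reads, and per length it was 11.8-fold above Hoxb6. The 3 controls differed more in Hoxb7 (3.02 to 5.79 CPM) than in Hoxa7 (3.02 to 3.76 CPM). Hoxb8, the 5′ neighbour of Hoxb7, had 4, 3 and 0 reads.

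HoxC was hardly read. Its 6 genes together had 91 of the 22415 Hox reads of the controls (0.406%), and Hoxc6 had 22, 18 and 24 of them in controls 1, 2 and 3. The other 5 HoxC genes had 0 to 5 reads in a control. At 0 reads in the 3 controls together, as for Hoxb13, a level of up to 0.0162 CPM is allowed (3 counts; counting error only).

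Paralogues were used unequally. Of group 8, Hoxd8 was 1445-fold above Hoxb8 and 1265-fold above Hoxc8 per length in controls, with 7 and 8 control reads of these in all. Of group 9, Hoxd9 was 114-fold above Hoxb9, 405-fold above Hoxc9 and 1085-fold above Hoxa9. Of group 10, Hoxd10 was 965-fold above Hoxa10, which had 14 control reads, and Hoxc10 had 2. In group 7 the order was less steep, and Hoxa7 was at 0.440 of the level of Hoxb7. By number, the 15 genes of groups 4 to 8 took 54.0% of the control Hox reads, the 11 genes of groups 9 to 13 with a row took 45.2%, and the 8 genes of groups 1 to 3 took 0.839%. These ratios rest on few reads in the lower gene and carry its counting error.

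In knockout LECs the same 6 genes stayed at 1 CPM or more, and of all Hox genes Hoxa7 alone passed the test. Hoxa7 (ENSMUSG00000038236, chromosome 6, 52214491 to 52221854) stood at 3.76, 3.70 and 3.02 CPM in controls 1, 2 and 3 and, in the knockouts, at 10.4 and 7.0 CPM. Both knockouts lay above every control. Hoxa7 rose 2.48-fold, a log2 fold change of 1.31 ± 0.22 (SE; adjusted p = 0.0245, edgeR quasi-likelihood F test, Benjamini-Hochberg over 15874 genes). The call was lost without any 1 of the controls (adjusted p = 0.0725, 0.0768 and 0.109 without control 1, 2 and 3 in edgeR), with a log2 fold change of 0.99 to 1.56 when any 1 library was left out. With 1 knockout left, the spread comes from the controls alone and the lone knockout is assumed to vary like them, so the adjusted p of 0.0386 without knockout 1 and 0.00773 without knockout 2 (edgeR) are no check on the knockouts' own spread. Of its exon bases, 20.4% overlap the antisense gene Hoxaas3, which itself had 4 to 15 reads in a library. In a sorted pool, more cells of a type and more RNA per cell cannot be told apart.

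Reading the clusters as a whole, 15 of the 34 genes passed the filter on low counts and were tested, 1 of them through the knockout libraries alone. 1 rose (6.67% of those tested) and 0 fell, against 3.25% of all 15874 genes called higher, 3.99% called lower and 7.24% called either way, so the count is close to the background. With a correction for GC content and exon length the calls over all genes were 415 higher and 341 lower, against 516 and 634 without it. At an unadjusted p under 0.05, 5 of the 15 were higher and 0 lower, against 12.8% of all genes higher and 13.6% lower, and 1 of the 5 is Hoxa9, which was tested through its knockout reads alone. The median log2 fold change of the 15 was 0.32, and 0.00 over all genes tested. The counts in DESeq2 were 2 higher (Hoxa7 and Hoxd9) and 0 lower.

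**Figure D2:**
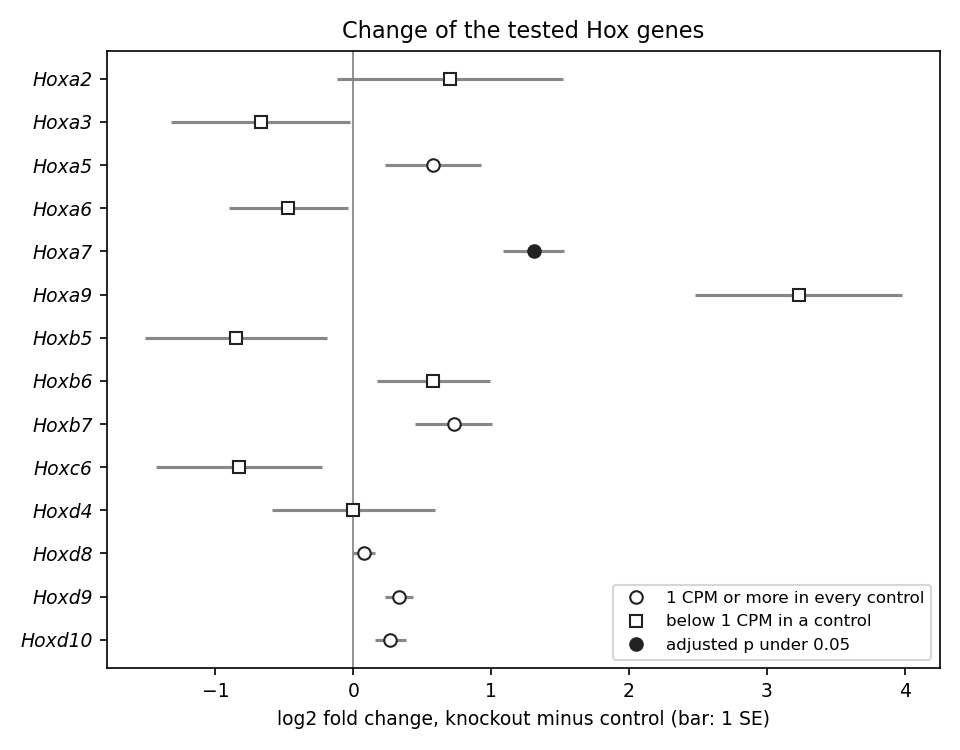
Log2 fold change, knockout minus control (horizontal axis), of 14 of the tested Hox genes, with bars of 1 SE; circles mark genes at 1 CPM or more in every control and squares the others. Hoxa7 (filled, 1.31 ± 0.22) passed the test, and Hoxd8 lay at 0.08 ± 0.08.

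The 3 highly transcribed HoxD genes moved little. Hoxd8 stood at 52.2, 51.9 and 52.9 CPM in the controls against 55.4 and 55.2 CPM in the knockouts, a log2 fold change of 0.08 ± 0.08 (SE; adjusted p = 0.566, edgeR). Hoxd9 stood at 16.1, 16.1 and 16.8 CPM in the controls against 20.7 and 20.5 CPM in the knockouts, a log2 fold change of 0.33 ± 0.10 (adjusted p = 0.0924, edgeR). Hoxd10 stood at 38.9, 35.1 and 39.9 CPM in the controls against 49.4 and 41.9 CPM in the knockouts, a log2 fold change of 0.27 ± 0.11 (adjusted p = 0.184, edgeR). In each of the 3 both knockouts lay above all controls, as they did in 22.8% of all genes tested (both lay below in 22.5%), by 1.06-fold, 1.26-fold and 1.20-fold in the fit. None passed the threshold, and Hoxd8 turned to -0.02 ± 0.08 with a correction for GC content and exon length. Hoxd9 passed in DESeq2 (0.34 ± 0.12, adjusted p = 0.0309), and with that correction it was at 0.17 ± 0.11 (adjusted p = 0.381, edgeR).

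Hoxb7, the group 7 paralogue of Hoxa7, stood at 5.79, 3.97 and 3.02 CPM in controls, against 7.53 and 6.69 CPM in knockouts. Both knockouts lay above the controls, with a log2 fold change of 0.73 ± 0.28 that did not pass (adjusted p = 0.152, edgeR). The Hoxa7 reads were 0.650, 0.931 and 1.00 times the Hoxb7 reads in controls 1, 2 and 3, and 1.38 and 1.05 times in knockouts 1 and 2. Hoxa5, known in endothelium as a brake on angiogenesis, split the knockouts, with 2.48 CPM in the first and 5.61 CPM in the second, against 2.52, 2.92 and 2.67 CPM in controls. Its log2 fold change was 0.58 ± 0.35 (adjusted p = 0.337, edgeR), -0.13 without knockout 2 and 1.05 without knockout 1, where it passed (adjusted p = 0.0363 in edgeR) as 1 knockout library against a spread taken from the controls alone.

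**Figure D3:**
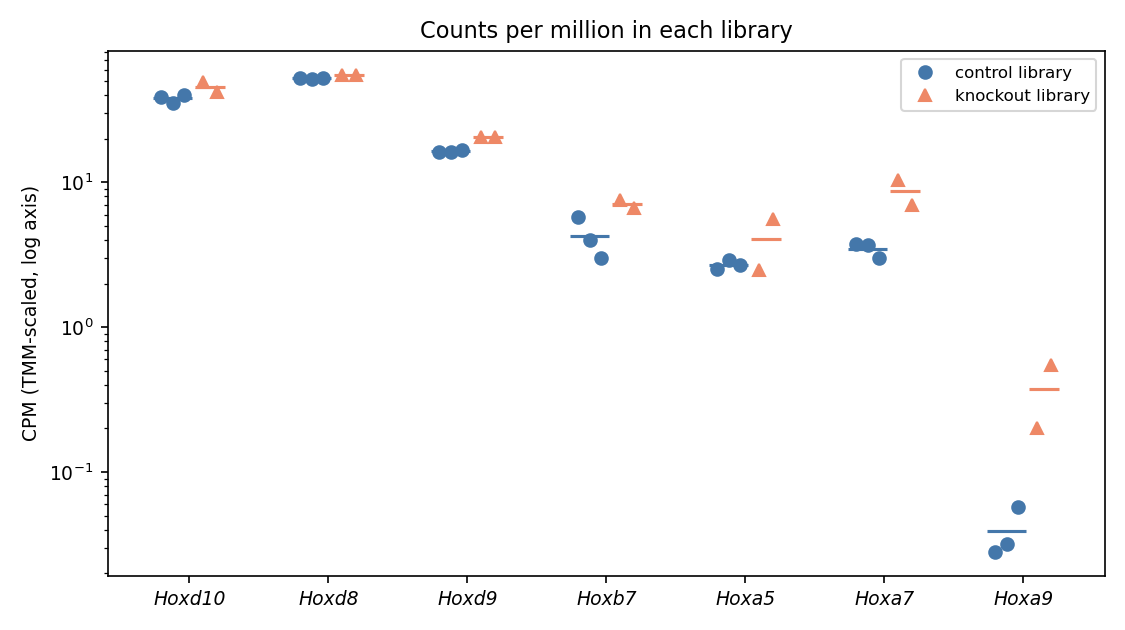
CPM (vertical axis, log scale) of the 6 transcribed Hox genes and Hoxa9 (horizontal axis), each library as a symbol (3 controls as circles, 2 knockouts as triangles); horizontal lines mark means. Hoxa7 stands at 3.02 to 3.76 CPM in controls, against 7.0 and 10.4 CPM in knockouts, and the Hoxa5 knockouts lie apart at 2.48 and 5.61 CPM.

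Hoxa9, the 5′ neighbour of Hoxa7 (chromosome 6, 52223100 to 52231089), had 2, 2 and 3 reads in controls and 11 and 32 reads in knockouts. It entered the test through its knockout reads alone, so a difference was a condition of its being tested. Its reads per scaled library were 10.1 times higher in knockouts (95% exact interval 4.50 to 26.6, counting error only), and the adjusted p was 0.0502 in edgeR. It passed in edgeR with no filter on low counts (adjusted p = 0.0391), without robust estimation (0.0478) and with edgeR's newer fit (adjusted p = 0.0235). It did not pass in edgeR without control 1, 2 or 3 (adjusted p = 0.137, 0.14 and 0.134) or with a correction for GC content and exon length (0.059). Nor did it in limma-voom (adjusted p = 0.0651), and DESeq2 gave it no adjusted p. Its log2 fold change was 2.32 without knockout 2 and 3.77 without knockout 1. Even in the knockouts Hoxa9 stayed at 0.0673 ± 0.0443 RPKM (SD, n = 2), with Hoxd9 143-fold above it. Hoxa10, next to it, had 11, 0 and 3 reads in controls and 10 and 0 in knockouts. Hoxa4 had 3, 4 and 4 reads in controls and 3 and 21 in knockouts, high in knockout 2 like Hoxa5.

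The remaining tested genes reported here were low and had wide errors. Hoxa2 and Hoxb6 had positive log2 fold changes (0.70 ± 0.82 and 0.58 ± 0.41), Hoxd4 was at 0.00 ± 0.59, and Hoxa3, Hoxa6, Hoxb5 and Hoxc6 had negative ones (-0.67 ± 0.65, -0.47 ± 0.43, -0.85 ± 0.66 and -0.83 ± 0.60). Their adjusted p in edgeR was 0.421 or more. Hoxa6, between Hoxa5 and Hoxa7, went from 0.676, 0.481 and 0.539 CPM in controls to 0.384 and 0.430 CPM in knockouts. It lay below all controls in both knockouts where Hoxa7 lay above them, without passing the test itself. The 19 genes not tested had at most 21 reads in any library, so that only very large changes would have been visible in them.

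Markers of blood endothelium were higher in the same knockout libraries. Of 13 such markers 8 rose and 0 fell, with a median log2 fold change of 1.31, against 3.25% of all genes tested called higher. The summed level of all 13 was 3669 to 4003 CPM in controls and 5404 to 5619 CPM in knockouts. Most of that sum came from Plvap (2688 ± 202 CPM in controls; log2 fold change 0.25 ± 0.15) and Cd36 (1092 ± 335 CPM; 0.91 ± 0.26), which did not pass. Of these 8 calls 3 were lost without control 1, 4 without control 2 and 8 without control 3. Cd34, a marker of vessel endothelium, stood at 16.2, 25.0 and 15.1 CPM in controls, against 63.3 and 80.5 CPM in knockouts, and 0 markers of this list had no read in the controls. Of 11 markers of pericytes and smooth muscle, 3 rose and none fell, and the 3 calls were lost without control 2 and without control 3. Of 13 fibroblastic and mesenchymal markers 0 passed in edgeR or DESeq2 (1 at an unadjusted p under 0.05), with sums of 385 to 533 CPM in controls and 528 to 1110 CPM in knockouts. Of 7 epithelial markers 1 rose, and of 12 leukocyte and blood markers 1 rose and 2 fell. The leukocyte marker that rose, Adgre1, had 0 reads in each control and 15 and 20 in knockouts. Those that fell were Csf1r, with 123, 69 and 87 reads in controls and 20 and 8 in knockouts, and Kit (log2 fold change -0.88 ± 0.15). These 3 calls were lost without control 2 and without control 3. Of 6 adipocyte markers 2 were tested, Fabp4 (210 ± 24.1 CPM in controls) and Car3 (15, 4 and 3 reads in controls, 164 and 46 in knockouts), and both rose. Adgre1 and Car3 passed the filter only with their knockout reads. Adipoq, Plin1, Cfd and Lep had too few reads to be tested, and Lep had 0 in every library. Of 10 LEC markers 3 rose (Ccl21a, Mmrn1 and Sox18) and 1 fell, Prox1, from 1577, 1384 and 1416 CPM to 884 and 852 CPM (log2 fold change -0.75 ± 0.11; adjusted p = 0.0186, edgeR). Of these 4 calls 3 were lost without control 2, that of Prox1 among them, and 4 without control 3. The part of these cells in the level of Hoxa7 was not tested.

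Of 11 genes of the PBC and MEIS families and the related TGIF class, 1 rose and 0 fell. Over all 15874 genes tested 3.25% were called higher and 3.99% lower, and the counts of this and the following lists stand beside these shares. None of the PBC or MEIS family genes passed. The gene that rose was Tgif1, a TALE homeodomain repressor of the TGIF class, at 164, 184 and 165 CPM in controls, against 276 and 256 CPM in knockouts (log2 fold change 0.64 ± 0.09; adjusted p = 0.0194, edgeR), and the call was lost without any 1 control. Meis2 (71.6 ± 4.84 CPM in controls; log2 fold change 0.11 ± 0.11) and Pknox1 (45.6 ± 1.32 CPM; 0.09 ± 0.11) did not pass.

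Of 30 Polycomb genes 0 rose and 2 fell, against 3.25% of all genes tested called higher and 3.99% called lower. Their median log2 fold change was -0.05. Suz12, a core subunit of the complex PRC2, fell by 0.55 ± 0.12 on the log2 scale, and Jarid2, which guides PRC2 to chromatin, fell by 0.63 ± 0.14 (adjusted p = 0.0429 and 0.0472, edgeR). Both calls were lost without any 1 control and without knockout 2. In DESeq2 1 Polycomb gene was higher and 5 lower. Suz12 stood at 28.3, 24.3 and 24.4 CPM in controls, against 18.3 and 16.9 CPM in knockouts. The list's genes with most reads, Rbbp7 (250 ± 10.0 CPM; 0.17 ± 0.09), Phc2 (216 ± 14.6 CPM; 0.33 ± 0.10) and Rbbp4 (132 ± 4.43 CPM; -0.30 ± 0.12), did not pass. The PRC2 enzymes Ezh1 (0.12 ± 0.14) and Ezh2 (-0.36 ± 0.15) did not pass, nor did the subunit Eed (0.29 ± 0.13). Of 14 genes of the MLL and UTX complexes and their partners 0 rose and 1 fell: Dot1l, which methylates histone H3 in transcribed genes, went from 111 ± 11.4 to 62.1 ± 1.80 CPM (log2 fold change -0.84 ± 0.11; adjusted p = 0.0148, edgeR), a call lost without control 2 and without control 3. Kmt2a, the MLL enzyme best known for keeping Hox genes on, was at -0.24 ± 0.12, and the demethylase Kdm6b, with 86.1 ± 14.6 CPM in controls, at 0.45 ± 0.17.

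Retinoic acid, made from vitamin A, switches on 3′ Hox genes in the embryo. Of 18 genes of its synthesis, breakdown and receptors, 13 were tested. Over all genes tested 3.25% were called higher and 3.99% lower, and of this list 0 rose and 1 fell. This was the receptor partner Rxra, at 48.8, 47.6 and 48.7 CPM in controls, against 37.5 and 35.6 CPM in knockouts (log2 fold change -0.40 ± 0.08; adjusted p = 0.0382, edgeR), a call lost without any 1 control and without knockout 2. In DESeq2 1 of the list was higher and 1 lower. Rdh10, an enzyme of retinoic acid synthesis and the highest gene of the list (481 ± 52.5 CPM), was at 0.04 ± 0.23, Dhrs3 at 0.10 ± 0.10 and the receptor Rara at 0.28 ± 0.12. Aldh1a1, which makes retinoic acid, went from 2.11 ± 1.33 to 8.11 ± 2.22 CPM and did not pass (1.93 ± 0.50, adjusted p = 0.0645, edgeR). Of the 3′ genes, Hoxa2, with 2 to 22 reads in a library, did not pass, and Hoxb1, with at most 2, was not tested. Hoxb2, with 3, 1 and 3 reads in controls and 7 and 9 in knockouts, was not tested either. Nor was Hoxb3, with 1, 2 and 5 reads in controls and 2 and 0 in knockouts.

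**Figure D4:**
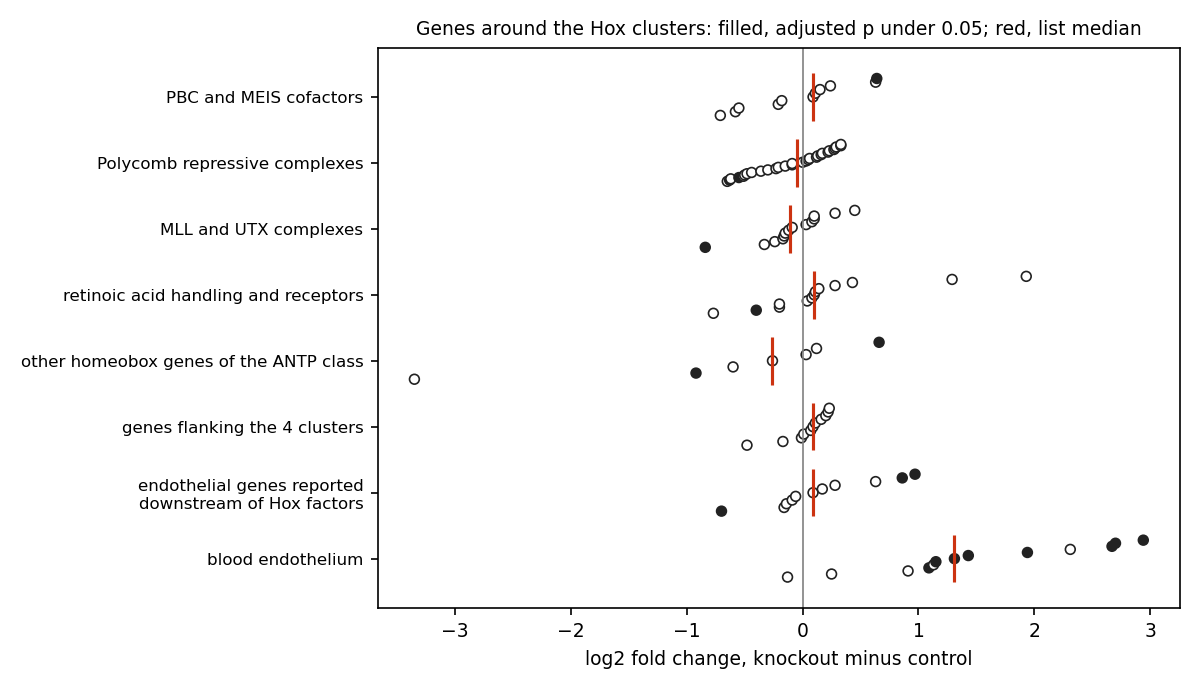
Log2 fold change, knockout minus control (horizontal axis), of each tested gene of 8 lists (the non-coding genes of the clusters are not drawn), filled where adjusted p was under 0.05, with a red line at each list's median. Medians of the first 7 lists lie between -0.26 and 0.10, and that of the blood endothelial markers at 1.31.

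Beyond the clusters, a pair of related homeobox genes moved in opposite directions. Meox2, a homeobox gene of vessel endothelium that restrains growth, fell from 149, 159 and 151 CPM in controls to 72.4 and 89.4 CPM in knockouts (log2 fold change -0.92 ± 0.11; adjusted p = 0.0131, edgeR). Its relative Meox1 rose from 36.1, 41.7 and 38.2 to 58.2 and 63.8 CPM (0.66 ± 0.10; adjusted p = 0.0194, edgeR). These 2 were 1 rise and 1 fall among 7 tested of 16 with a row, and both calls were lost without control 2 and without control 3, and that of Meox1 also without control 1. Hhex, a homeobox gene of early endothelium, was at 0.12 ± 0.14. Evx1 and Evx2, which lie at the 5′ ends of HoxA and HoxD, had 12 or fewer reads in a library.

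Of 14 genes flanking the clusters with a row, 11 were tested, and 0 rose and 0 fell in edgeR (1 higher and 0 lower at an unadjusted p under 0.05, and 0 in DESeq2). Hnrnpa1, beside HoxC, stood at 85.6 ± 6.5 CPM in controls with a log2 fold change of 0.11 ± 0.10, Hibadh (84.5 ± 2.85 CPM), on the 5′ side of HoxA, was at -0.01 ± 0.08, and Calcoco1 (66.8 ± 4.45 CPM) was at 0.07 ± 0.12. Of the non-coding genes of the clusters 8 had a row and 3 were tested, and Hoxd3os1 (0.03 ± 0.21), Hoxaas3 (1.32 ± 0.65) and Hotairm1 (1.10 ± 0.70) did not pass (0 at an unadjusted p under 0.05 in edgeR, and 0 in DESeq2).

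Of 11 endothelial genes reported to lie downstream of Hox factors, 2 rose and 1 fell, against 3.25% of all genes tested called higher and 3.99% called lower. Plaur, the urokinase receptor reported under Hoxa3, rose from 384, 527 and 534 CPM in controls to 870 and 1012 CPM in knockouts (log2 fold change 0.97 ± 0.16; adjusted p = 0.0245, edgeR). Efna1, the ephrin reported under Hoxb3, rose from 51.3, 72.4 and 69.2 to 120 and 114 CPM (0.86 ± 0.15; adjusted p = 0.0256, edgeR). Kdr, the VEGF receptor reported under Hoxb5, fell from 2027, 1910 and 1794 to 1203 and 1153 CPM (-0.70 ± 0.11; adjusted p = 0.0204, edgeR). The 3 Hox genes named above were low here, with 1 to 5 reads of Hoxb3, 12 to 17 of Hoxb5 and 18 to 21 of Hoxa3 in a control. Only 1 reported regulator is named for each gene, and links to the transcribed Hox genes were not tested. The 3 calls were lost without control 2 and without control 3, and that of Kdr also without control 1.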

How the data were processed

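The deposited values are raw read counts for Ensembl gene identifiers, with a column for each of the 5 libraries. Tools listed in the submitters' processing notes are HTSeq 0.6.1, Bowtie2 2.1.0, TopHat2 2.0.14 and bcl2fastq 2.17.1.14, with build mm10; in the sources used here, what each did and the annotation release are not given. The libraries (SMART-Seq v4 and Nextera XT, per the labels' protocols) carry no molecular identifiers, and the kits do not mark strand. Of 27843 identifiers 27648 matched a GENCODE M21 name. Exon lengths and overlaps were taken from that annotation. At most 1.44% of the 50-base words of a Hox gene's transcripts recur in genes that do not overlap it.

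The test ran under R 4.3.3 in edgeR 4.0.16 (TMM, filterByExpr with minimum count 10, robust quasi-likelihood F test, legacy form, Benjamini-Hochberg over 15874 genes, threshold 0.05). SE was obtained as the size of a log2 fold change over the root of its F. RPKM uses TMM-scaled libraries and union exon length. The test was tried on simulated counts. Every Hox gene entered the counts, medians and tests, and the values of 1 Hox gene and 1 cofactor gene are not reported here; of each Hox-related list, every gene called is named and, of the others, up to 3 per list by control level; Ezh1, Ezh2, Eed, Kmt2a, Aldh1a1, Evx1 and Evx2 were added after their values were seen. The members and lists were chosen with earlier results of these data known. Alternatives were other scalings, filters, DESeq2 1.42.0, limma-voom 3.58.1, a length and GC offset (loess, span 0.5), a replicate block, and fits with 1 library removed.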

Additional observations from a re-analysis of the deposited data

How the results depend on the processing

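Hoxa7 was higher under all 17 alternatives run (log2 fold change 0.99 to 1.56), of which 1, the threshold of 0.1, keeps the reported fit. Hoxa7 lost its call without each control and with a replicate block, at 1.19 (adjusted p = 0.151, edgeR), or 1.11 (adjusted p = 0.161, edgeR) with the length and GC offset added. Deviations of same-numbered libraries from their group means were hardly correlated (0.0477 and -0.0515). With 2 knockouts these deviations mirror each other, so the check cannot exclude a pairing by number. Hox genes called higher, 1 as reported, were 2 with DESeq2 (Hoxd9 added) and 2 without a filter, with edgeR unrobust and with its newer fit, where the gene added was Hoxa9. In the last 2 of these Hoxa9 entered the test through its knockout reads alone. They were 3 at a threshold of 0.1, 0 with the block with or without the offset, and 0 to 3 with a library left out. Hox genes called lower were 0 throughout. The median of the tested Hox genes ran from 0.20 to 0.47. Transcribed Hox genes numbered 6 in all alternatives but the threshold of 5 CPM, where they numbered 3.

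Over all genes, 516 were higher and 634 lower. The counts were 1254 and 1466 with DESeq2, 1188 and 1358 at a threshold of 0.1, 0 and 0 with the block, and 3 and 6 with block and offset. The offset alone gave 415 and 341. With a library left out, 2 to 784 were higher and 9 to 1125 lower, the fewest without control 3. Of the Hox-related lists, 4 genes were higher and 6 lower. These counts were 7 and 10 with DESeq2 and at 0.1, 0 and 0 with the block and with block and offset, and 3 lower with library totals and with the offset. With a library left out they ran from 0 to 5 higher and 0 to 9 lower.

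Some signs changed. Hoxd8 was at -0.02 with the offset and -0.01 with block and offset. Hoxd4 was at -0.09 with the offset, 0.00 without a filter, -0.35 without control 1, 0.39 without control 2 and -0.24 without knockout 1. Hoxa5 was at -0.13 without knockout 2 and 1.05 without knockout 1. Depth limits the 19 untested Hox genes, and 18 of all 34 had 12 or fewer reads in every library.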
